A study of Mus musculus with 12 samples.

Results

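Cyclic nucleotide phosphodiesterases are the enzymes that break down cAMP and cGMP, and 10 genes that encode them were followed here out of 56748 genes counted by RNA sequencing of mouse brain. The genes were taken by symbol: Pde10a, Pde7b, Pde1a, Pde1b, Pde1c, Pde2a, Pde4a, Pde4b, Pde4d and Pde8b. Each matched exactly 1 row of the count table, and all 10 passed the filter on low counts. The members were chosen by symbol with earlier results of these libraries known, among them the fold change of Pde10a after valproic acid in wildtype, so member values in that comparison, and in the difference between the genotypes that contains it, are given as a description without a test. Which other results guided the choice is not recorded, so the p-values of members in the remaining comparisons are not independent evidence either.

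The 12 libraries form 4 groups of 3. They are htr3a Notch KO with prenatal valproic acid (exposed knockout), htr3a Notch KO without it (knockout), WT with prenatal valproic acid (exposed wildtype) and WT without it (wildtype). Valproic acid is an antiepileptic drug that inhibits histone deacetylases, and rodents exposed to it in the womb serve as models of autism. The series describes the tissue as adult forebrain and the knockout as conditional. The labels used here do not say which Notch gene was removed, what drove the deletion, how old the adults were, or at what dose and stage they were exposed. Nothing says that replicates were separate animals, so p-values measure only the spread between these libraries.

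The cell makes cAMP and cGMP with cyclases in response to receptors and nitric oxide, and phosphodiesterases end these signals. The families differ in substrate and control: Pde1 enzymes are switched on by calcium and calmodulin and cut both nucleotides, Pde2a is stimulated by cGMP, the Pde4, Pde7 and Pde8 enzymes prefer cAMP, and Pde10a cuts both. In the brain Pde10a and Pde1b are best known from the projection neurons of the striatum, where dopamine acts through D1 and D2 receptors to raise and lower cAMP, and Pde4 enzymes are the targets of rolipram.

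Total counts were 18935991 to 22494104 in exposed knockout, 16887885 to 21840608 in knockout, 20279003 to 24155672 in exposed wildtype and 18139178 to 24944681 in wildtype. Of the forebrain marker list, 7 genes summed to 245 to 262 CPM (a gene's counts scaled to a common library size) in the 12 libraries, against 0.327 to 1.71 CPM for 7 hindbrain markers. Replicate 3 of each exposed group lacked Xist, the RNA of the inactive X chromosome, with 0.264 CPM in knockout and 0.612 CPM in wildtype. Every unexposed library had at least 279 CPM of Xist. Ddx3y, a Y chromosome gene, reached 40.7 CPM in exposed knockout and 42.3 CPM in exposed wildtype, and at most 0.0942 CPM in unexposed libraries. Each exposed group thus held male RNA and the unexposed groups did not, so sex was not balanced with exposure. Member values without the libraries lacking Xist are given where they move a result. In bulk tissue, fewer cells of a type and less RNA per cell cannot be told apart.

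Per kilobase of annotated exon, Pde1b was the most abundant member and Pde1c the least. Over the 12 libraries Pde1b averaged 52.1 CPM per kilobase, Pde1a 19, Pde8b 11.8, Pde10a 10.3 and Pde4a 10.1. Pde4b averaged 7.55 CPM per kilobase, Pde7b 2.97, Pde2a 1.93, Pde4d 1.42 and Pde1c 0.481. The level of Pde2a is uncertain, since 3955 of its 6149 exon bases also lie in Gm45837 on the same strand, a gene with 5 counts over the 12 libraries, and how reads of shared exons were counted is unknown here. Of the other 9 members only Pde8b shares exon bases with another gene, Gm48420 on the opposite strand, whose counts came to 0.54% of those of Pde8b.

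**Figure D1:**
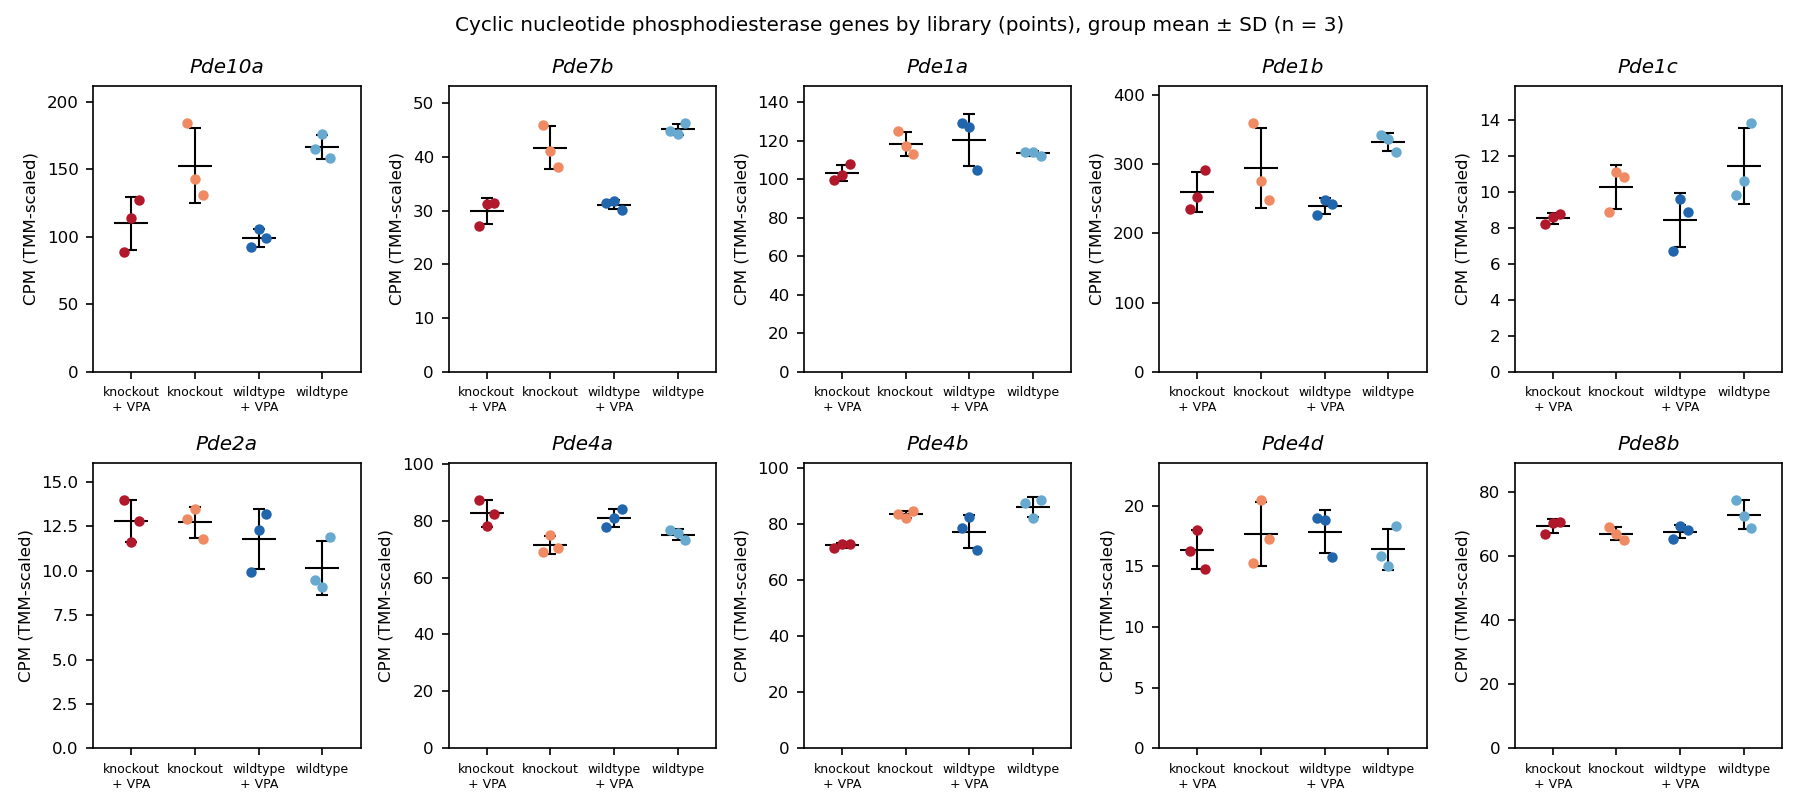
Level of each of the 10 phosphodiesterase genes in CPM scaled by TMM factors (vertical axis, from 0) in exposed knockout, knockout, exposed wildtype and wildtype. Points are libraries and bars are group means with SD (n = 3). Pde10a and Pde7b lie lower in both exposed groups than in either unexposed group, with no overlap, while Pde8b stays between 65 and 77.6 CPM in all 12 libraries.

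Pde10a and Pde7b had the largest fold changes of the 10 members after valproic acid in both genotypes. Pde10a (ENSMUSG00000023868, chromosome 17), the dual-substrate enzyme of these neurons, was at 88.8, 114 and 127 CPM in exposed knockout, against 184, 143 and 131 CPM in knockout. In exposed wildtype it was at 92.6, 106 and 99 CPM, against 165, 176 and 158 CPM in wildtype. No exposed library reached the lowest unexposed one, and the knockout groups were more spread than the wildtype groups. The mean was 110 ± 19.4 CPM in exposed knockout and 152 ± 27.9 CPM in knockout (SD, n = 3 each), 1.39-fold lower (log2 -0.47 ± 0.14 SE), which missed the threshold of 0.05 in edgeR's quasi-likelihood test (Benjamini-Hochberg adjusted p = 0.157). DESeq2's Wald test (adjusted p = 0.0168) and edgeR without a count filter (adjusted p = 1.3e-05) did call it, and over the 14 other settings the adjusted p reached 0.339. In wildtype the difference was 1.68-fold lower (log2 -0.75 ± 0.14 SE), with 99.1 ± 6.49 CPM in exposed and 167 ± 9.09 CPM in unexposed libraries. The group means therefore ran from wildtype through knockout and exposed knockout to exposed wildtype at the low end, and only the step between knockout and exposed knockout was free of overlap.

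Pde7b (ENSMUSG00000019990, chromosome 10), a cAMP-specific enzyme, was the member that fell in knockout after valproic acid. It was at 27.1, 31.2 and 31.5 CPM in exposed knockout and at 46, 41.2 and 38.1 CPM in knockout, so the groups did not overlap. The fall was 1.4-fold (log2 -0.48 ± 0.08 SE, edgeR adjusted p = 0.0195). Lower in 1 of 10 members compares with 0.0389% of the 17995 tested genes that fell in this comparison, 7 genes in all. The call is not stable: the adjusted p was 0.0606 by limma-voom, and 0.055, 0.0508, 0.151 and 0.0642 without knockout replicate 1, knockout replicate 2, exposed knockout replicate 1 and exposed knockout replicate 2. It passed in the other 9 of 14 settings, and the log2 value stayed between -0.54 and -0.41 in all of them. In exposed wildtype Pde7b was at 31.4, 31.8 and 30.2 CPM, against 44.9, 44.3 and 46.3 CPM in wildtype (log2 -0.54 ± 0.08 SE). Exposed knockout replicate 1, the lowest of the 12 libraries for Pde7b, Pde10a and Pde1a, had 18.6% of its counts in mitochondrial genes, against 12.2% to 16.4% in the other libraries. Without it, the log2 values after valproic acid in knockout were -0.42 for Pde7b, -0.35 for Pde10a and -0.18 for Pde1a. The 6 exposed libraries all lay at or below 31.8 CPM of Pde7b and the 6 unexposed ones at or above 38.1 CPM.

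Pde1b (ENSMUSG00000022489, chromosome 15), the calmodulin-stimulated enzyme of striatal neurons, differed less evenly between the genotypes. It was at 235, 253 and 292 CPM in exposed knockout, against 359, 275 and 248 CPM in knockout, with overlap (log2 -0.18 ± 0.11 SE, edgeR adjusted p = 0.463). In exposed wildtype it was at 226, 248 and 243 CPM, against 342, 336 and 318 CPM in wildtype, with no overlap (log2 -0.48 ± 0.11 SE). Knockout replicate 1 was the highest of the 12 libraries for both Pde1b and Pde10a. Without it, the log2 value of Pde1b after valproic acid in knockout was -0.0089 and that of Pde10a was -0.31. Without the libraries lacking Xist, these values were -0.28 and -0.6.

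**Figure D2:**
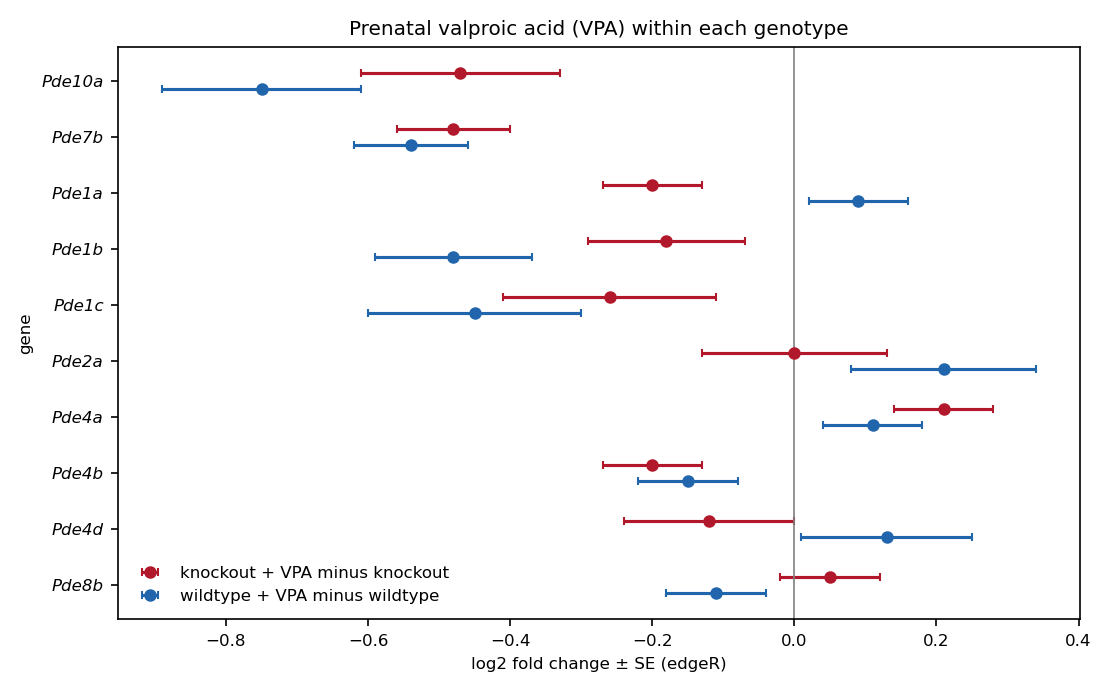
Log2 fold change with its SE from the edgeR fit (horizontal axis) of each gene after prenatal valproic acid, in knockout (red) and in wildtype (blue). Pde10a and Pde7b are the leftmost in knockout at -0.47 and -0.48, Pde4a is to the right of 0 in both genotypes, and Pde1a lies left of 0 in knockout and right of 0 in wildtype.

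Of 20 markers of striatal projection neurons, 5 fell after valproic acid in wildtype, and none passed the test in knockout, where the summed levels overlapped. Over all tested genes, too, far fewer passed in knockout than in wildtype (counts in the closing section), and 0.0389% fell in knockout. The lowest adjusted p-values of these markers in knockout were close to the threshold by edgeR's test, at 0.0593 for Tac1 and Foxp1 and 0.0627 for Bcl11b. In the test of the difference between the genotypes 0 of the 20 markers passed, as did 0 of all tested genes. The calls therefore do not show that the fall was confined to wildtype. The sum of these markers was 2308 to 2613 CPM in exposed knockout and 2378 to 3279 CPM in knockout, and 2035 to 2293 CPM in exposed wildtype and 2911 to 3056 CPM in wildtype. Their median log2 fold change was -0.26 in knockout, with 18 of 20 negative and 0 past the test, and -0.59 in wildtype, with 20 of 20 negative. Among those that fell were Tac1 (log2 -0.89, edgeR adjusted p = 0.000102), the substance P precursor, Drd1 (-0.82) and Syndig1l (-0.58). Of 8 deep cortex markers, Syt6 (-0.86) and Foxp2 (-0.55) fell in wildtype, but the list was mixed, with 3 positive and 5 negative (median log2 -0.06). The deep cortex sums overlapped in wildtype, at 310 to 336 CPM in exposed and 332 to 363 CPM in unexposed libraries. Pde1b made up 10.7 ± 0.495% of the striatal marker sum in exposed knockout and 10.7 ± 0.283% in knockout, and 10.9 ± 0.168% in exposed wildtype and 11 ± 0.132% in wildtype. Pde10a made up 4.5 ± 0.564% in exposed knockout and 5.58 ± 0.0712% in knockout, and 4.53 ± 0.0867% in exposed wildtype and 5.54 ± 0.198% in wildtype (SD, n = 3 each). Relative to the summed markers, Pde10a was lower in every exposed library than in any unexposed one of the same genotype, and Pde1b overlapped. The sum gives most weight to abundant markers with smaller values, such as Gng7 (log2 -0.02 in knockout, -0.33 in wildtype) and Adcy5 (0.04 in knockout, -0.29 in wildtype). Single markers had values at least as low as those of Pde10a, as Tac1 did in both genotypes (-0.5 in knockout, -0.89 in wildtype). Pde7b made up 1.17% to 1.31% of the sum in exposed knockout and 1.4% to 1.62% in knockout, and in wildtype the ranges overlapped, with 1.35% to 1.54% in exposed and 1.45% to 1.59% in unexposed libraries. The 6 olfactory bulb markers summed to 166 to 196 CPM in exposed knockout and 200 to 287 CPM in knockout, and to 159 to 168 CPM in exposed wildtype and 218 to 346 CPM in wildtype. After valproic acid 6 of 6 had negative log2 values in both genotypes, with medians of -0.92 in knockout and -1.75 in wildtype. Synpr, a synaptic vesicle protein gene, fell in wildtype, at 112 to 124 CPM in exposed and 173 to 207 CPM in unexposed libraries (edgeR adjusted p = 0.000539), and no other of the 6 passed in either genotype. Some of these markers were uneven among the unexposed libraries. Doc2g was at 2.92 to 4.23 CPM in exposed wildtype and 3.18 to 32.1 CPM in wildtype, and Cdhr1 at 4.99 to 5.61 CPM in exposed wildtype and 5.07 to 37.1 CPM in wildtype, so both overlapped. In knockout both overlapped as well. Doc2g was at 3.64 to 8.35 CPM in exposed knockout and 4.48 to 20.7 CPM in knockout, and Cdhr1 at 5.63 to 8.66 CPM and 4.76 to 24.7 CPM. Choroid plexus markers went the other way in knockout, where 9 genes summed to 2609 to 3132 CPM in exposed and 1823 to 1977 CPM in unexposed libraries, while in wildtype the ranges overlapped, at 1346 to 2651 CPM in exposed and 1321 to 2051 CPM in unexposed libraries. Cldn2, a claudin of that epithelium, rose in exposed knockout against exposed wildtype (log2 0.94, edgeR adjusted p = 0.0431). Upper cortex markers lay higher after valproic acid in wildtype, where 7 of 7 were positive and the sums were 613 to 731 CPM in exposed and 501 to 588 CPM in unexposed libraries, but overlapped in knockout, at 591 to 643 CPM in exposed and 573 to 643 CPM in unexposed libraries. Microglia markers were positive for 5 of 5 genes in wildtype, with sums of 238 to 245 CPM in exposed and 209 to 221 CPM in unexposed libraries, and overlapped in knockout, at 231 to 244 CPM in exposed and 209 to 239 CPM in unexposed libraries. Thalamus markers summed to 64.2 to 66.1 CPM in exposed knockout and 70.6 to 80.2 CPM in knockout. As a set they were mixed, with 3 positive and 3 negative log2 values and a median of -0.02 in knockout. Calb2 alone was at 14.1 CPM in exposed knockout and 24.3 CPM in knockout. In wildtype the thalamus sums overlapped, at 64.1 to 73 CPM in exposed and 57.8 to 138 CPM in unexposed libraries. The lists for upper cortex, hippocampus, thalamus, forebrain, hindbrain, oligodendrocytes, astrocytes and microglia had 0 genes past edgeR's test in any of the 4 comparisons. Few of all tested genes passed in these comparisons either. The part of these cell populations in the member values was not tested. The marker lists were also written with earlier results known, and Adcy5 and Gnal stand both among the striatal markers and in the pathway lists.

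**Figure D3:**
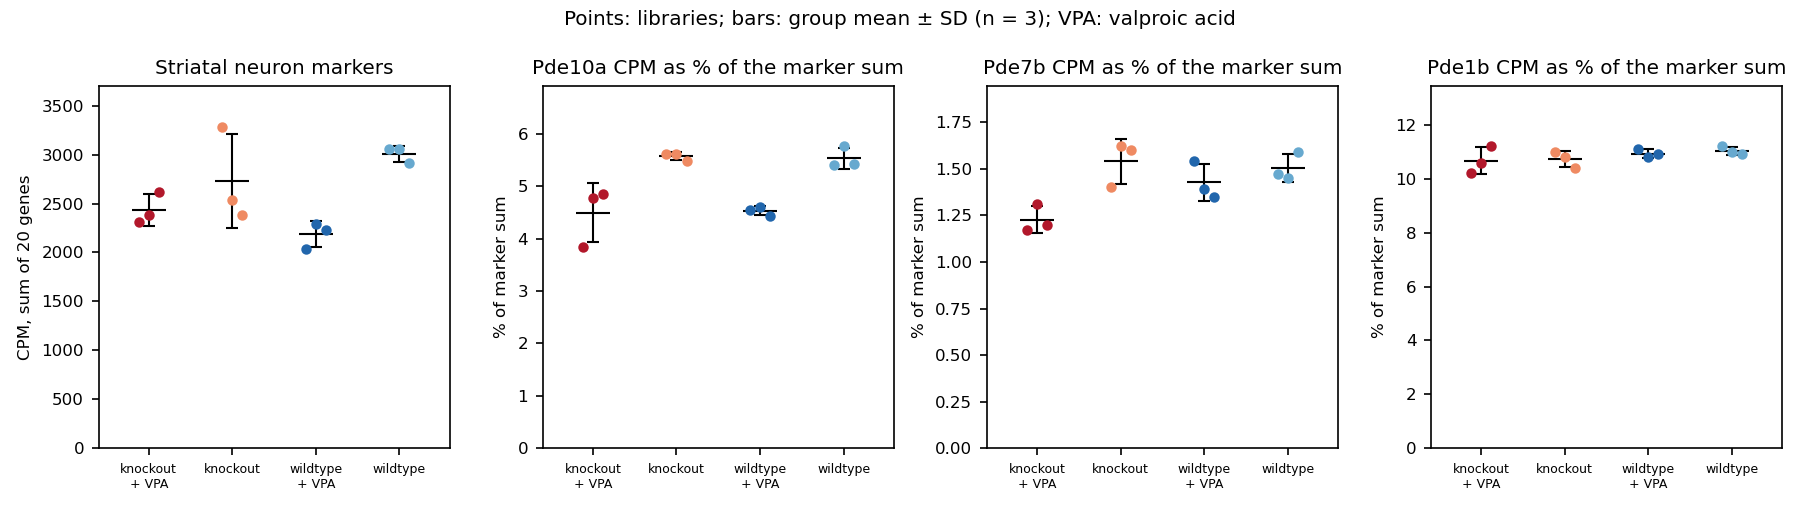
Left, summed CPM of 20 striatal projection neuron markers in the 4 groups, and right of it the CPM of Pde10a, Pde7b and Pde1b as a percentage of that sum. Points are libraries and bars are group means with SD (n = 3). The percentage of Pde1b lies near 11 in all groups, and that of Pde10a is at 4.86 or below in exposed and at 5.41 or above in unexposed libraries.

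The genes whose profile over the 12 libraries was closest to that of Pde10a included the dopamine receptor genes Drd1 and Drd2. Closeness was the mean absolute difference of log2 CPM after each gene's own mean was removed, among 11474 named genes outside the list with a mean of at least 5 CPM. The closest was Drd1, the D1 dopamine receptor, at 0.067. Also among the nearest 8 was Nexn, which encodes an actin-binding protein, at 0.091. Drd2, the D2 dopamine receptor, and Syt6, a synaptotagmin, were at 0.098, Penk, the enkephalin precursor, and Ppp1r1b, the dopamine-regulated phosphatase inhibitor DARPP, were at 0.101, and Foxp2, a transcription factor, was at 0.103. Without exposed wildtype replicate 1, 3 of the nearest 8 genes remained among them. Pde7b was closest to Spock3 at 0.035, Foxp2 at 0.054 and Klhl13 at 0.072. For Pde1b the nearest were Rasd2, a striatal small GTPase, at 0.032, Syndig1l at 0.06 and Tbc1d8 at 0.078. Pde2a, with few counts, lay nearest to Hs3st1 at 0.063, and Rpl36a and Pfdn2 followed at 0.091. Of the 45 pairs of members, Pde10a and Pde7b ranked 4 at 0.111, and Pde10a and Pde4a were the farthest apart at 0.385.

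Promoter windows of Pde10a, Pde7b and Pde1b, which had the lowest log2 values after valproic acid in wildtype, and of Pde4a and Pde4b, which lay in opposite directions, are printed so that the motifs counted next can be read in them. Each is the RefSeq window on GRCm38.p6, the 250 bases before and 50 after an annotated start, read 5′ to 3′ along the gene. Capitals mark the core of the cAMP response element (TGACG or CGTCA) and the GC box (GGGCGG or CCGCCC), searched on both strands and without regard to overlap with other motifs. The first window is given for Pde10a, Pde7b, Pde1b and Pde4b, and the window with a cAMP core for Pde4a.
Pde10a (chr17:8801495-8801794, plus strand): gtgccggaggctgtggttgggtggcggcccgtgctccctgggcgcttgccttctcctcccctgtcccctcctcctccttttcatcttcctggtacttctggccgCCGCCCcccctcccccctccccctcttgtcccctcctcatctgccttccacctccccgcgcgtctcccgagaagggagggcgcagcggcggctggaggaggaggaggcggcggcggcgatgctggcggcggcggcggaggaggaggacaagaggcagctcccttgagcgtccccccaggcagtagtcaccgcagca
Pde7b (chr10:20548279-20548578, minus strand): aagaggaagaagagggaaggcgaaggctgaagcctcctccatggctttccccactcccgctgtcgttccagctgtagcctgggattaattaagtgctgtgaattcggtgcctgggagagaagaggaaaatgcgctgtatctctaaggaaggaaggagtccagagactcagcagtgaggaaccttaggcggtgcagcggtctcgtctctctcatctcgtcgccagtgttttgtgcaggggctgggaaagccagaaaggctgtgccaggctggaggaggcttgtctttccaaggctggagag
Pde1b (chr15:103502784-103503083, plus strand): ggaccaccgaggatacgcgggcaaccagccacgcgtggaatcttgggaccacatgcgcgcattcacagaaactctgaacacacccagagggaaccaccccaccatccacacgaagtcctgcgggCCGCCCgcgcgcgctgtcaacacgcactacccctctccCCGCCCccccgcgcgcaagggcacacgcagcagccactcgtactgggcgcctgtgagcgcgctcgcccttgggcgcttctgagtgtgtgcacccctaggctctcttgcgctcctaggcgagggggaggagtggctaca
Pde4b (chr4:102421305-102421604, plus strand): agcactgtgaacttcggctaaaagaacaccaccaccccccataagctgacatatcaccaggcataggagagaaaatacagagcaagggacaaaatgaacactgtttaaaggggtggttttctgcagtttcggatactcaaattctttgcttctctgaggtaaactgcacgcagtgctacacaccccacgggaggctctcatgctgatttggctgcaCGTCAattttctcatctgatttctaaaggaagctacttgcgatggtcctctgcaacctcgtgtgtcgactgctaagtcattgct
Pde4a (chr9:21183851-21184150, plus strand): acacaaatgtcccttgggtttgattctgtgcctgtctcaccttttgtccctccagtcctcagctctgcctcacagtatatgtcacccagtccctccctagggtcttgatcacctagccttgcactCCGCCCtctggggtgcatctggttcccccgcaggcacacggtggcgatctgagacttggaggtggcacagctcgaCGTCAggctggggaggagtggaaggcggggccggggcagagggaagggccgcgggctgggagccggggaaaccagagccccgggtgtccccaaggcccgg
The full cAMP response element TGACGTCA was in 0 of the 31 windows of the 10 members (some of them overlapping) and in 1.79% of 32851 windows in the table. Its core was in 5 of 31, those of Pde1a, Pde2a, Pde4a, Pde4b and Pde8b with 1 window each, and in 20.8% of all windows. In the printed windows Pde4a has the core 50 bases before the start and Pde4b 34 bases before it, and neither Pde10a nor Pde7b nor Pde1b has it in any window in the table. Those 3 genes have only 2, 1 and 3 windows, too few at 20.8% per window for an absence to be read as a result. The GC box was in 8 of 31 windows and in 35.7% of all. In its printed window Pde10a has it 146 bases before the start, Pde1b 126 and 88 bases before it, and Pde7b lacks it. The printed window of Pde10a is 71.3% G or C, that of Pde1b 67% and that of Pde7b 55.7%, against a median of 52.7%. The counts combine all starts of a gene, so they do not say which of these windows was in use.

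Of the other calmodulin-stimulated members, Pde1a (ENSMUSG00000059173, chromosome 2) differed in sign between the genotypes. It was at 99.7, 102 and 108 CPM in exposed knockout, against 125, 117 and 113 CPM in knockout (log2 -0.2 ± 0.07 SE, edgeR adjusted p = 0.198). In exposed wildtype it was at 129, 127 and 105 CPM, against 114, 114 and 112 CPM in wildtype (log2 0.09 ± 0.07 SE). The exposed knockout libraries lay below every knockout and wildtype library, and exposed wildtype replicate 3 lay within their range. The difference between the genotypes in the valproic acid value was -0.29 ± 0.1 SE on the log2 scale, and it was -0.39 without exposed wildtype replicate 3 and -0.42 without both libraries lacking Xist. Between exposed knockout and exposed wildtype Pde1a was 1.17-fold lower (log2 -0.22 ± 0.07 SE, edgeR adjusted p = 0.453), and without that replicate the value was -0.32 with an adjusted p of 0.0333.

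Pde1c (ENSMUSG00000004347, chromosome 6), the remaining enzyme of the family, was near 10 CPM and imprecise. It was at 8.18, 8.58 and 8.79 CPM in exposed knockout, against 8.86, 11.1 and 10.8 CPM in knockout (log2 -0.26 ± 0.15 SE, edgeR adjusted p = 0.427). In exposed wildtype it was at 6.73, 9.62 and 8.87 CPM, against 9.82, 10.6 and 13.8 CPM in wildtype (log2 -0.45 ± 0.15 SE). The groups did not overlap in either genotype, although the nearest libraries in each were almost level. Summed over the 3 Pde1 genes, the level was 343 to 409 CPM in exposed knockout and 372 to 493 CPM in knockout, and 357 to 385 CPM in exposed wildtype and 444 to 466 CPM in wildtype.

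The Pde4 genes, which encode cAMP-specific enzymes with separate roles in synaptic and immune signalling, lay in different directions, and none passed the test. Pde4b (ENSMUSG00000028525, chromosome 4) was at 71.3, 72.9 and 73 CPM in exposed knockout, below the 83.6, 82.2 and 84.5 CPM of knockout (log2 -0.2 ± 0.07 SE, edgeR adjusted p = 0.158). In exposed wildtype it was at 78.5, 82.5 and 70.8 CPM, and in wildtype at 87.4, 82.1 and 88.6 CPM, with overlap (log2 -0.15 ± 0.07 SE). Pde4a (ENSMUSG00000032177, chromosome 9) lay the other way, at 87.3, 78 and 82.3 CPM in exposed knockout and 68.8, 74.9 and 70.3 CPM in knockout (log2 0.21 ± 0.07 SE, adjusted p = 0.146). It was at 77.8, 81 and 84 CPM in exposed wildtype, against 76.6, 75.6 and 73 CPM in wildtype (log2 0.11 ± 0.07 SE), and again the groups did not overlap. Pde4d (ENSMUSG00000021699, chromosome 13) lay between 14.8 and 20.5 CPM in all groups, with log2 values of -0.12 ± 0.12 SE in knockout (adjusted p = 0.687) and 0.13 ± 0.12 SE in wildtype. The sum of the 3 genes was 171 ± 3.19 CPM in exposed knockout and 172 ± 4.94 CPM in knockout, and 176 ± 5.93 CPM in exposed wildtype and 177 ± 4.06 CPM in wildtype (SD, n = 3 each).

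Pde8b and Pde2a had the smallest fold changes of the members after valproic acid in knockout. Pde8b (ENSMUSG00000021684, chromosome 13), a cAMP-specific enzyme of high affinity, was at 66.8 to 70.7 CPM in exposed knockout and 65 to 69.1 CPM in knockout (log2 0.05 ± 0.07 SE, edgeR adjusted p = 0.783), and at 65.3 to 69.5 CPM in exposed wildtype and 68.8 to 77.6 CPM in wildtype (log2 -0.11 ± 0.07 SE). Its range over the 12 libraries, 0.25 on the log2 scale, was the smallest of the members, against 1.05 for Pde10a and 1.03 for Pde1c. Pde2a (ENSMUSG00000110195, chromosome 7), the cGMP-stimulated enzyme, was at 11.6 to 14 CPM in exposed knockout and 11.8 to 13.5 CPM in knockout (adjusted p = 0.994), and at 9.93 to 13.2 CPM in exposed wildtype and 9.1 to 11.9 CPM in wildtype (log2 0.21 ± 0.13 SE). Its neighbouring group means all overlapped.

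**Figure D4:**
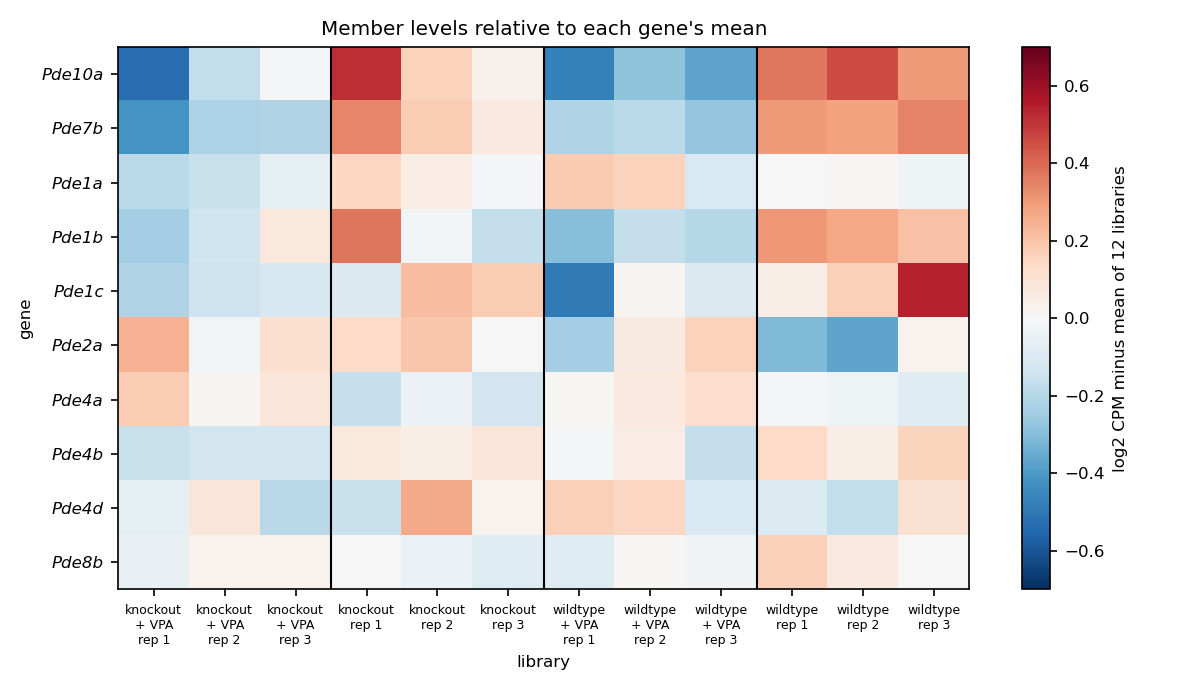
Log2 CPM of each gene minus its mean over the 12 libraries (colour, red above and blue below the mean), with genes down the page and libraries across it, grouped as exposed knockout, knockout, exposed wildtype and wildtype. Pde10a and Pde7b lie below their mean in all 6 exposed libraries, Pde10a in exposed knockout replicate 3 only just, and Pde1b does in 5 of 6, the exception being exposed knockout replicate 3.

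Over all 10 members, 7 had a negative log2 value after valproic acid in knockout and 6 in wildtype, with medians of -0.19 and -0.13, against medians of 0.01 and 0.01 over all tested genes, of which 48.2% and 48.5% were negative. In knockout 5 members lay below the unexposed group without overlap and 1 above it, beside 10.3% and 9.88% of tested genes. In wildtype 4 lay below and 1 above, beside 10.9% and 9.84% of tested genes. The wildtype counts describe the comparison in which the list was chosen and are not read further. The comparisons within knockout and within wildtype share no library. The difference between the genotypes was largest in size for Pde1b (log2 0.3 ± 0.15 SE), Pde1a and Pde10a (log2 0.28 ± 0.19 SE) and was 0.05 ± 0.11 SE for Pde7b.

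The deletion itself was examined by setting knockout against wildtype, and no member passed the test with or without valproic acid. In unexposed animals 0 of 10 members passed, as did 0.0389% of all tested genes, and 1 member, Pde2a, had an unadjusted p under 0.05 (log2 0.32 ± 0.13 SE, edgeR adjusted p = 1). DESeq2 and limma-voom also called 0 members there. The log2 values ran from -0.17 for Pde1b to 0.32 for Pde2a, and Pde10a was at -0.13 ± 0.14 SE. After valproic acid 0 of 10 members passed, beside 0.05% of all tested genes, and 1, Pde1a, had an unadjusted p under 0.05, with 0 called by DESeq2 or limma-voom. The values ran from -0.22 for Pde1a to 0.15 ± 0.14 SE for Pde10a. Groups overlapped for 10 of 10 members in both comparisons, in which 7.39% and 13.2% of tested genes were free of overlap. These comparisons share the wildtype and the exposed wildtype libraries with the comparison in which the list was chosen.

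The 14 other phosphodiesterase genes, of which 10 were tested, had 0 members past the test in any of the 4 comparisons by edgeR. Few of all tested genes passed in these comparisons (counts in the closing section), so 0 of 10 is not read as a result. Their sum was 129 to 138 CPM in exposed knockout and 127 to 132 CPM in knockout, and 123 to 132 CPM in exposed wildtype and 133 to 137 CPM in wildtype. Pde7a, the paralogue of Pde7b, was at 17.5 CPM in exposed knockout and 16.9 CPM in knockout (log2 0.05 ± 0.11 SE), and at 16.9 CPM in exposed wildtype and 16.4 CPM in wildtype (log2 0.05 ± 0.11 SE). Pde8a had log2 values of 0.2 ± 0.1 SE in knockout and -0.1 ± 0.1 SE in wildtype, the cGMP-specific Pde9a had a value of -0.1 ± 0.11 SE in wildtype, and Pde3a was near 3 CPM. The largest of these genes by level, Pde6d, which encodes a prenyl-binding subunit, was at 45.2 ± 0.918 CPM in exposed and 52.8 ± 2.59 CPM in unexposed wildtype (log2 -0.23 ± 0.07 SE, edgeR adjusted p = 0.113).

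Genes that make, sense or respond to cyclic nucleotides had no calls either, but few genes passed over the whole table. The share was 0.0389% of tested genes between the unexposed groups and 0.05% between the exposed groups. Counts for valproic acid, with the most genes in wildtype, are in the closing section. Lists this small would be expected to hold few calls or none, so their absence is not read as a result. None of 10 adenylyl cyclases, 8 tested genes of guanylyl cyclases and neuronal nitric oxide synthase, 10 kinase and Epac genes, 7 tested nucleotide-gated channels, 11 anchoring proteins, 7 G protein genes, 8 CREB family genes and 3 calmodulins passed edgeR's test in any of the 4 comparisons. The cyclase of striatal neurons, Adcy5, was at 424 CPM in exposed knockout and 412 CPM in knockout (log2 0.04 ± 0.09 SE), and at 373 CPM in exposed wildtype and 456 CPM in wildtype (log2 -0.29 ± 0.09 SE, adjusted p = 0.129). Gnal, the G protein that couples D1 receptors to it, had log2 values of -0.13 ± 0.08 SE in knockout and -0.24 ± 0.08 SE in wildtype (adjusted p = 0.126). Upstream of both, Drd1 fell in wildtype to 27.9 ± 2.71 CPM in exposed libraries, against 49.2 ± 1.77 CPM in unexposed ones (edgeR adjusted p = 0.00246), and in knockout its log2 value was -0.46 ± 0.12 SE (adjusted p = 0.0918). Drd2 had log2 values of -0.21 ± 0.2 SE in knockout and -0.69 ± 0.19 SE in wildtype, and neither passed the test. Adora2a, the adenosine receptor of the indirect pathway, had values of -0.26 ± 0.21 SE in knockout and -0.64 ± 0.21 SE in wildtype, also short of the threshold. Ppp1r1b was likewise uncalled, with -0.29 ± 0.22 SE in knockout and -0.66 ± 0.22 SE in wildtype.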

How the data were processed

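RNA was sequenced from 12 mouse brain libraries after ribosomal RNA depletion, per the labels' protocols. The submitters' processing notes name HISAT2 and GRCm39 without versions. No source names the counting program, annotation or strand setting. The authors deposited raw counts for each Ensembl gene. Symbols and exon lengths came from GENCODE M21 (GRCm38), which names 52073 identifiers holding 99.51% of counts, and promoter windows from RefSeq. Genes kept by filterByExpr (17995) were scaled by TMM and fitted with a mean per group over all 12 libraries (edgeR 4.0.16, robust quasi-likelihood, two-sided, Benjamini-Hochberg at 0.05; R 4.3.3). SEs follow from the fold change and its F statistic. Log2 CPM used a prior count of 2. Settings tried were DESeq2 size factors, no filter, 1 CPM in 3 libraries, DESeq2 1.42.0, limma-voom 3.58.1, a replicate block, only the libraries compared, each library left out and both libraries lacking Xist left out. The fit was tested on simulated data. Named were all members, fixed pathway genes, list genes past the test and the nearest profiles; Pde6d, Synpr, Doc2g, Cdhr1, Gng7 and the pairs of members were chosen after their values were seen. Of the genes this rule names, 1 is not reported here. Members and lists were chosen with earlier results of these data known. Counting error at this depth is small for members above 20 CPM and larger for Pde1c, Pde2a and Pde4d.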

Additional observations from a re-analysis of the deposited data

How the results depend on the processing

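In the valproic acid comparison in knockout 10 genes passed the test, against 391 without a count filter, 193 by DESeq2, 41 with only the libraries compared, 6 with the replicate block and 3 by limma-voom. In wildtype 161 genes became 512 without a filter, 333 by DESeq2, 247 with only the libraries compared and 40 without both libraries lacking Xist. Between exposed knockout and exposed wildtype 9 became 60, 25 by DESeq2 and 29 without those libraries, and between the unexposed groups 7 became 15 without a filter and 11 with only the libraries compared. The difference between the genotypes had 0 genes, 5 without a filter and 4 without the libraries lacking Xist. Leaving out single libraries gave 2 to 10, 14 to 155, 7 to 86 and 0 to 1 genes in the same order (knockout, wildtype, exposed groups, difference between genotypes), and 3 to 8 of the genes closest to Pde10a were kept. In wildtype it was 33 and 14 without wildtype replicates 2 and 3 and 36, 72 and 62 without exposed wildtype replicates 1, 2 and 3. Between the exposed groups it was 86 without exposed wildtype replicate 3. The cause was not tested.

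Pde2a in knockout after valproic acid was at -0.0044 with DESeq2 size factors, -0.0017 without a filter, -0.0043 by DESeq2, -0.0066 by limma-voom, -0.001 with the replicate block and -0.0033 both with only the libraries compared and without those lacking Xist, and -0.0674 to 0.062 with single libraries left out. Leaving out single libraries also changed the sign of Pde4d (-0.2156 to 0.0068 after valproic acid in knockout, -0.0117 to 0.2106 between unexposed groups), Pde1c (-0.2644 to 0.0014 between unexposed and -0.118 to 0.1362 between exposed groups), and Pde7b (-0.0948 to 0.0031) and Pde4a (-0.0184 to 0.0637) between exposed groups. In the difference between the genotypes it did so for Pde7b (-0.0075 to 0.1292) and Pde4b (-0.1177 to 0.0003), and Pde7b was at -0.014 without both libraries lacking Xist. Deviations of same-numbered libraries correlated weakly, at -0.06 to 0.11, with 1 of 18 pairs above 0.1 and 7 of 12 libraries closest to their own number. Between wildtype and knockout the same-numbered values were 0.06, 0.09 and 0.11, against -0.1 to 0.02 for different numbers. Whether replicate numbers pair the libraries therefore remains unknown. Apart from counts, the replicate block ended no member's call.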
